A study of Mus musculus with 12 samples.

Results

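Annexin mRNA was followed in 12 RNA sequencing libraries of mouse lens at postnatal day 7 (P7). The genes were taken by symbol from the deposited count table, and the 8 symbols asked for (*Anxa1*, *Anxa2*, *Anxa3*, *Anxa4*, *Anxa5*, *Anxa6*, *Anxa7* and *Anxa11*) were all found among its 55487 gene identifiers. Of these 8 genes, 7 were among the 8984 kept for testing, and *Anxa4* was not. A gene was kept where 3 or more libraries reached 5 CPM, the count scaled to the library total. The libraries came from 4 groups of 3, all on the C57BL6/J background. These were wild-type mice, *Trpm3*-KO mice in which a reporter cassette interrupts the gene of the TRPM3 cation channel, *Trpm3*-I/M mice heterozygous for a knock-in that exchanges 1 isoleucine of the channel for methionine, and *Trpm3*-M/M mice homozygous for it. The study made each library from a pool of 4 male and 4 female lenses. It describes both I/M and M/M lenses as developing cataract at this age, and KO and wild-type lenses as free of it. It asked how the mutation and the loss of the channel alter lens gene expression. The labels do not say whether the 3 pools of a genotype came from separate litters, so the tests measure the spread between pools.

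Annexins are cytosolic proteins that bind acidic phospholipids, most of them when Ca2+ rises, through a conserved core of repeated helical domains. Their variable N-terminal tails bind partners, most of them small EF-hand proteins, such as S100A10 for annexin A2, S100A11 for annexin A1 and ALG-2 for annexin A11. They are known for organising membrane and cortical actin, for sealing torn plasma membranes, for vesicle traffic and, in the case of annexin A1, for limiting inflammation and phospholipase A2 activity.

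The start-site regions of *Anxa2*, *Anxa5* and *Anxa1* are shown here because these 3 genes had the largest rise, the only fall past 2-fold and the highest wild-type level among the 8. Each is a RefSeq window of 300 bases from GRCm38.p6, 250 before and 50 from the annotated start onward, written along the gene's own strand. Such a window was found for 6 of the 8 genes, and was not found for *Anxa3* and *Anxa6*. Capitals mark matches on either strand to AP-1 (TGANTCA), CRE (TGACGTCA), GC box (GGGCGG) and TATA box (TATAAA). E-boxes (CANNTG) were counted but not capitalised.
*Anxa2*, plus strand, chr9:69453433-69453732: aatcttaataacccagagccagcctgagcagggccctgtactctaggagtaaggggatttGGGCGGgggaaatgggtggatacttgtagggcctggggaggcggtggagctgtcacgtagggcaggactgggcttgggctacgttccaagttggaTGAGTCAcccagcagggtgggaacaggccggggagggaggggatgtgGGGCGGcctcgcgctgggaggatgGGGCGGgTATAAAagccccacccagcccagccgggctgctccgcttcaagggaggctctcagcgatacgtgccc
*Anxa5*, minus strand, chr3:36475838-36476137: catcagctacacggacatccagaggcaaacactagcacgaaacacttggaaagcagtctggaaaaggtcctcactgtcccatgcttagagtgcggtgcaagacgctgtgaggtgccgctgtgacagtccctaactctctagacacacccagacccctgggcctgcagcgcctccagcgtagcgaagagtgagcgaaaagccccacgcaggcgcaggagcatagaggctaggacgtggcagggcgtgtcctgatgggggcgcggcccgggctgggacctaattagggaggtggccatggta
*Anxa1*, minus strand, chr19:20390622-20390921: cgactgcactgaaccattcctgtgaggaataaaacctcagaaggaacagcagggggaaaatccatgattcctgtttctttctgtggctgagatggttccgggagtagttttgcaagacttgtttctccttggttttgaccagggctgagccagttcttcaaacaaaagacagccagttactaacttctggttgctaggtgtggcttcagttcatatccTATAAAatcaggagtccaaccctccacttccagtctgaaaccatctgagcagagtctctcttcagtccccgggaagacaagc
The *Anxa2* window held an AP-1 match whose first base lies at -95 from the start, 3 GC boxes and a TATA box at -17. The *Anxa1* window held a TATA box at -32 and 1 E-box, and the *Anxa5* window held only 1 E-box. No matches overlapped each other in these 3 windows. Of 32851 mouse promoter windows of the same length, 7.81% held an AP-1 match, 1.79% a CRE, 35.7% a GC box, 13.6% a TATA box and 72.3% an E-box. An AP-1 match was present in no other annexin window that was found, and a CRE in none. A match in a window describes its letters and shows nothing about binding.

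Between 56162182 and 82090262 estimated counts were assigned to genes per library. *Trpm3* itself was listed at 269.9, 250.6 and 285.1 CPM in the wild-type libraries and at 89.9, 99.7 and 96.3 CPM in KO. It was at 370.2, 413.4 and 376.1 CPM in I/M and at 473.0, 468.5 and 484.1 CPM in M/M. KO was thus lowest in every library, although a total over the gene does not separate intact from interrupted transcripts. Crystallin genes (16 in all) took 61.0 to 63.9% of the counts in wild-type and 49.4 to 51.3% in M/M. The *Trpm3* values above and all CPM values below are scaled with TMM factors, which ran from 0.828 to 1.27, unless the library total is named. *Trpm3*-I/M replicate 3 had 5 counts of *Xist*, against 2182 to 16856 in the other libraries, and so stands apart from the stated mix of sexes. Leaving it out changed none of the annexin counts given below.

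In wild-type lens *Anxa1* was the leading annexin. Levels between genes are given as CPM per kilobase of annotated exon, with mean and SD over 3 libraries. *Anxa1* stood at 36.5 ± 8.19, followed by *Anxa6* at 13.1 ± 0.720 and *Anxa5* at 13.1 ± 0.645, whose library ranges overlapped. Next came *Anxa2* at 10.3 ± 0.720 and *Anxa3* at 4.02 ± 0.149. The lowest were *Anxa7* at 1.66 ± 0.120, *Anxa11* at 1.32 ± 0.188 and *Anxa4* at 0.325 ± 0.0220. Apart from *Anxa6* and *Anxa5*, no neighbours in this order overlapped between libraries, but with the length of the longest transcript *Anxa2* ranked 2 instead of 4, ahead of *Anxa6* and *Anxa5*. Among annexins outside the 8, *Anxa9* had 4 to 12 counts in any library, and *Anxa10* and *Anxa13* had at most 2.

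**Figure D1:**
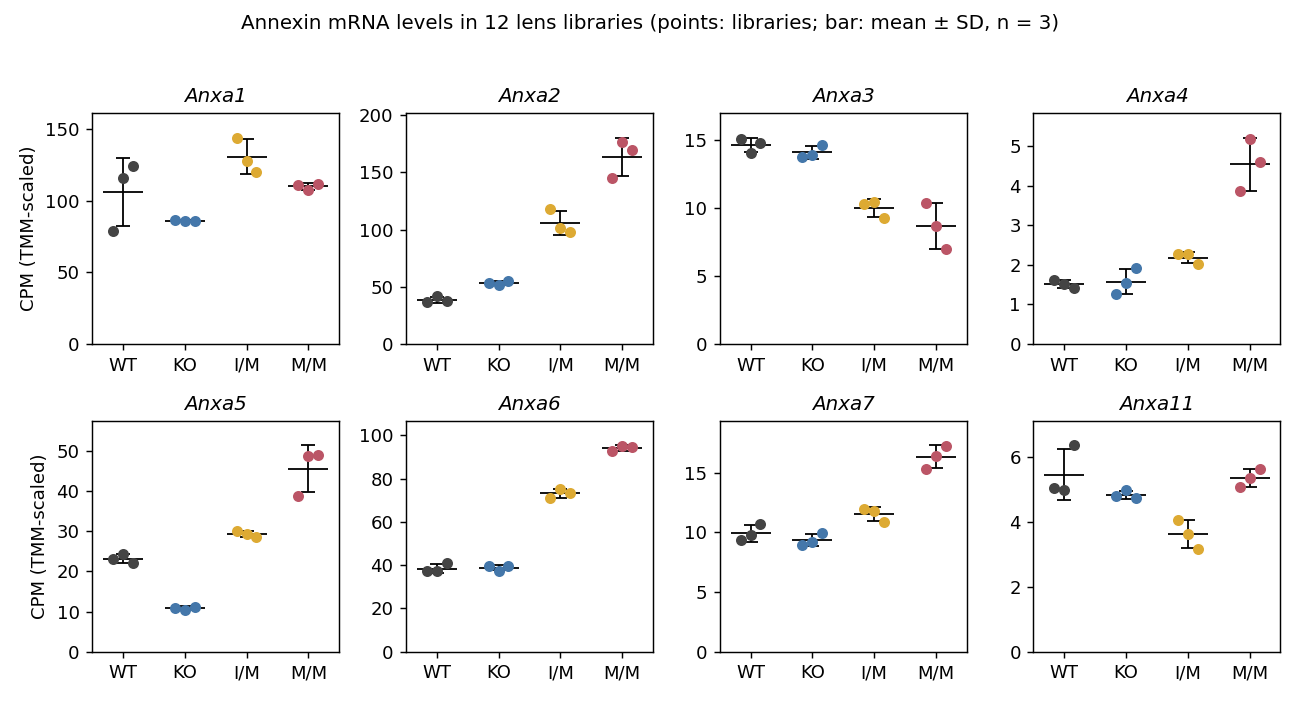
Level of each of the 8 annexin genes in CPM, scaled with TMM factors, for wild-type (WT), *Trpm3*-KO (KO), *Trpm3*-I/M (I/M) and *Trpm3*-M/M (M/M) lens at P7. Points are libraries and bars give the mean ± SD of 3. *Anxa2*, *Anxa4*, *Anxa5*, *Anxa6* and *Anxa7* step up from WT to I/M to M/M without overlap, *Anxa5* is lowest in KO at 10.8 ± 0.432 CPM, and *Anxa1* in WT ranges from 79.0 to 123.7 CPM.

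Annexin A2, which joins S100A10 into a heterotetramer that links membranes to actin and serves as a plasminogen receptor, had the largest rise of the 8. Its gene (ENSMUSG00000032231, chr9:69453620-69491795 in GRCm38) was measured at 36.5, 41.5 and 37.4 CPM in wild-type and 53.4, 51.9 and 55.1 CPM in KO. In I/M it was at 117.7, 101.2 and 98.2 CPM, and in M/M at 145.0, 176.7 and 169.2 CPM. The 4 genotypes did not overlap. Against wild-type, *Anxa2* rose 1.39-fold in KO (log2 0.47, SE 0.084, adjusted p 0.00441), 2.75-fold in I/M (log2 1.46, SE 0.0844, adjusted p 4.23e-08) and 4.26-fold in M/M (log2 2.09, SE 0.0857, adjusted p 2.73e-10). M/M stood above I/M by 1.55-fold (log2 0.63, SE 0.0817, adjusted p 3.26e-05). Adjusted p values here and below are those of edgeR's quasi-likelihood test after Benjamini–Hochberg correction across all tested genes, and a gene is called at an adjusted p of at most 0.05 with a fold change of at least 2.

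Annexin A5, a binder of phosphatidylserine that forms ordered lattices on exposed membrane, moved in opposite directions in KO and in the knock-in lenses. *Anxa5* (ENSMUSG00000027712, chr3:36448923-36475894) was at 23.1, 24.4 and 22.1 CPM in wild-type and at 10.9, 10.4 and 11.2 CPM in KO. All KO libraries lay below all wild-type libraries. It was at 30.1, 29.4 and 28.5 CPM in I/M and at 38.8, 48.9 and 48.9 CPM in M/M. The fall in KO was 2.14-fold (log2 -1.10, SE 0.0842, adjusted p 2.72e-06). The rise was 1.26-fold in I/M (log2 0.34, SE 0.0785, adjusted p 0.0051) and 1.96-fold in M/M (log2 0.97, SE 0.0779, adjusted p 1.69e-07). The M/M value lay just under 2-fold, and reached log2 1.01 without wild-type replicate 2 and 1.10 without M/M replicate 1, the lowest of the M/M libraries.

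Annexin A6, which carries a duplicated annexin core and takes part in endosome traffic and membrane repair, rose in both knock-in genotypes. *Anxa6* (ENSMUSG00000018340, chr11:54979108-55033445) was at 37.2, 37.1 and 40.8 CPM in wild-type and at 39.4, 37.5 and 39.7 CPM in KO, which overlapped. It was at 70.9, 75.4 and 73.2 CPM in I/M and at 92.8, 95.1 and 94.4 CPM in M/M. Its knock-in libraries stood far above all wild-type and KO libraries. The rise was 1.91-fold in I/M (log2 0.93, SE 0.0479, adjusted p 1.42e-08) and 2.45-fold in M/M (log2 1.29, SE 0.0481, adjusted p 1.05e-10). KO differed from wild-type by log2 0.02 (SE 0.0483, adjusted p 0.886).

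Annexin A7, also known as synexin, binds sorcin and fuses membranes in the presence of Ca2+. *Anxa7* (ENSMUSG00000021814, chr14:20455260-20480133) was at 9.32, 9.77 and 10.7 CPM in wild-type, 8.97, 9.22 and 9.92 CPM in KO, 11.9, 11.8 and 10.9 CPM in I/M, and 15.3, 16.4 and 17.3 CPM in M/M. M/M stood above every other library. The rise in M/M was 1.64-fold (log2 0.72, SE 0.0679, adjusted p 8.52e-07). The 1.16-fold difference in I/M (log2 0.21, adjusted p 0.0317) ran from log2 0.16 to 0.20 and no longer passed when any of 4 libraries was left out. The adjusted p was then 0.126 without wild-type replicate 1, 0.0909 without wild-type replicate 2, 0.0985 without I/M replicate 1 and 0.0982 without I/M replicate 2.

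Annexin A4, an epithelial annexin that inhibits a Ca2+-activated chloride conductance, was low and missed the filter, so its tests come from a fit with a filter of at least 1 CPM in 3 libraries. *Anxa4* (ENSMUSG00000029994, chr6:86736840-86793584) was at 1.61, 1.51 and 1.41 CPM in wild-type, 1.27, 1.54 and 1.92 CPM in KO, 2.27, 2.26 and 2.02 CPM in I/M, and 3.85, 5.18 and 4.58 CPM in M/M. In M/M it was 2.96-fold above wild-type (log2 1.56, SE 0.148, adjusted p 6.5e-07) and 2.05-fold above I/M (log2 1.04, SE 0.136, adjusted p 2.86e-05). In I/M it was 1.44-fold above wild-type (log2 0.53, SE 0.156, adjusted p 0.0208). That difference kept a similar size (log2 0.48 to 0.53) but no longer passed without wild-type replicate 2 (adjusted p 0.0534), wild-type replicate 3 (0.068), I/M replicate 1 (0.0566) or I/M replicate 2 (0.0612). *Anxa8*, an annexin of late endosomes that is no member of the 8, had 4, 2 and 2 counts in wild-type, 1, 3 and 2 in KO and 6, 6 and 5 in I/M, but 72, 144 and 187 counts in M/M (adjusted p 3.56e-07 against wild-type in the same lower-filter fit).

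*Anxa3* fell in both knock-in genotypes, and *Anxa11* fell in I/M only. Annexin A3 is a membrane-aggregating protein of neutrophil granules, and *Anxa3* (ENSMUSG00000029484, chr5:96793339-96845966) was at 15.1, 14.1 and 14.8 CPM in wild-type and 13.7, 13.9 and 14.7 CPM in KO. It was at 10.3, 10.4 and 9.25 CPM in I/M and at 10.4, 8.72 and 6.99 CPM in M/M, below wild-type and KO in every knock-in library. The fall was 1.46-fold in I/M (log2 -0.55, SE 0.107, adjusted p 0.0016) and 1.69-fold in M/M (log2 -0.76, SE 0.107, adjusted p 3.76e-05). M/M and I/M overlapped (log2 -0.21, adjusted p 0.122), a difference that passed without M/M replicate 1 (log2 -0.33, adjusted p 0.00891) and turned to 0.10 with library-size scaling.

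Annexin A11 tethers RNA granules to lysosomes and binds ALG-2, and its gene fell in I/M alone among the comparisons with wild-type. *Anxa11* (ENSMUSG00000021866, chr14:25842156-25886804) was at 5.03, 4.96 and 6.34 CPM in wild-type, 4.79, 4.97 and 4.73 CPM in KO, 4.06, 3.63 and 3.17 CPM in I/M, and 5.05, 5.36 and 5.61 CPM in M/M. The I/M libraries were below all others. The fall in I/M was 1.503-fold (log2 -0.59, SE 0.112, adjusted p 0.00136), and M/M stood 1.47-fold above I/M (log2 0.56, SE 0.108, adjusted p 0.000816). Scaled to the library total, *Anxa11* was at 6.17, 6.69 and 7.15 CPM in M/M. Outside M/M it reached 5 CPM only in wild-type replicate 3 (5.70). *Anxa11* was thus kept for testing only through M/M, where it is high on that scale. M/M differed from wild-type by log2 -0.03 (adjusted p 0.832), which became 0.48 (adjusted p 0.002) with library-size scaling. Some *Anxa11* counts were fractions, so reads were shared with other sequence and its values are less certain.

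Annexin A1, the glucocorticoid-induced annexin that signals through formyl peptide receptors, was the most abundant annexin outside M/M, yet passed the test in no comparison with wild-type. *Anxa1* (ENSMUSG00000024659, chr19:20373428-20390944) lies 1.75 Mb from *Trpm3* on the same chromosome. It was at 79.0, 115.7 and 123.7 CPM in wild-type, and at 86.4, 85.6 and 85.7 CPM in KO. It was at 143.8, 127.5 and 120.0 CPM in I/M, and at 110.9, 107.3 and 111.6 CPM in M/M. The wild-type libraries spanned more than those of any other genotype, and each genotype overlapped them. Differences from wild-type were log2 -0.31 in KO (SE 0.123, adjusted p 0.205), 0.30 in I/M (SE 0.123, adjusted p 0.0831) and 0.05 in M/M (SE 0.123, adjusted p 0.738). The I/M difference passed with DESeq2 (adjusted p 0.0471), and those of KO and I/M passed with no filter on low counts (adjusted p 4.83e-05 and 5.28e-06). The unfiltered fit gave far smaller adjusted p values at a similar fold change. For *Anxa5* in M/M against wild-type it gave 5.73e-47 at log2 0.96, where the main fit gave 1.69e-07 at 0.97. Its adjusted p values are therefore not comparable with those of the main fit. Without wild-type replicate 1, the low library, KO was lower by log2 -0.48 (adjusted p 0.00134), and M/M was at -0.13 against wild-type (adjusted p 0.118). M/M was lower than I/M by log2 -0.25 without that library (adjusted p 0.00434, against 0.109 with all libraries). With all libraries kept this difference passed with no filter on low counts (log2 -0.28, adjusted p 4.51e-05) and with only the genotypes compared (log2 -0.25, adjusted p 0.0157), and turned to 0.062 with library-size scaling. Without wild-type replicate 3, I/M was higher than wild-type by log2 0.42 (adjusted p 0.0224). M/M exceeded KO 1.28-fold (log2 0.36, adjusted p 0.0216). Without 1 of the KO libraries the difference kept its size (log2 0.35 to 0.36) with adjusted p of 0.0504, 0.0547 and 0.0551.

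**Figure D2:**
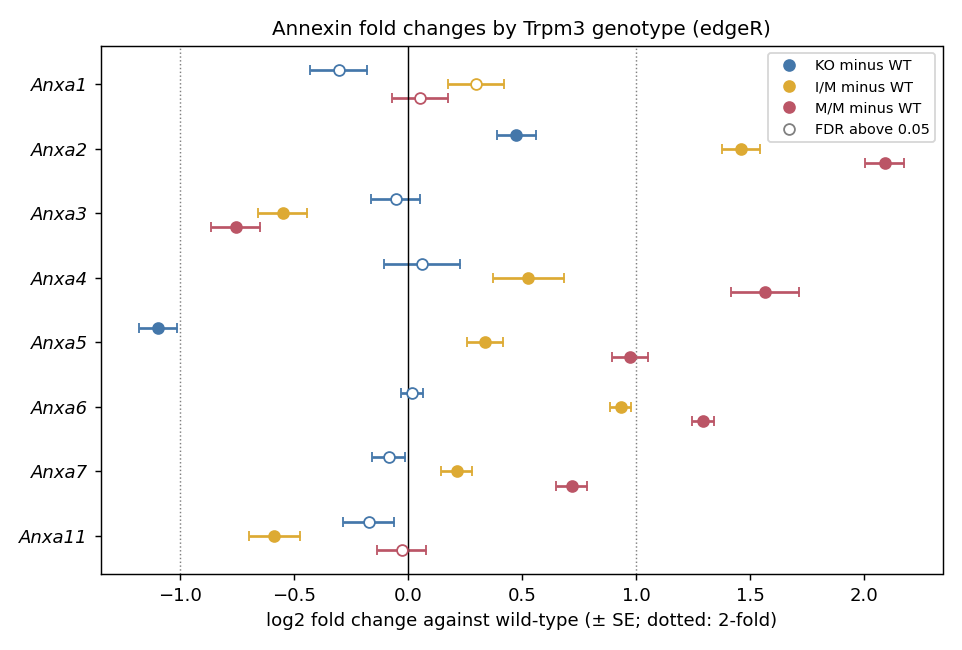
Log2 fold change of each annexin gene against wild-type in KO, I/M and M/M lens (x axis), with SE bars, filled where the adjusted p is at most 0.05. *Anxa4* comes from the fit with the lower filter. In M/M the points run from -0.76 for *Anxa3* to 2.09 for *Anxa2*, and in KO the only point past a dotted 2-fold line is *Anxa5*. With library-size scaling the M/M point of *Anxa11* changes sign.

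KO against wild-type asks what loss of the channel does to lens RNA. Here *Anxa5* fell, *Anxa2* rose by less than 2-fold, and the other 5 tested annexins did not pass. Of the 7 tested, 1 was called, against 0.568% of all tested genes. At any fold, 1 rose, against 2.16% of all genes, and 1 fell, against 2.2%. The median log2 fold change of the 7 was -0.08, beside 0.00 over all tested genes.

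I/M against wild-type asks what 1 copy of the mutation does. *Anxa2*, *Anxa6*, *Anxa5* and *Anxa7* rose and *Anxa3* and *Anxa11* fell, while *Anxa1* did not pass. Of the 7, 1 (*Anxa2*) was called, against 3.33% of tested genes. At any fold 4 rose, against 17.3%, and 2 fell, against 15.3%. The median was 0.30, beside 0.00 over all tested genes.

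M/M against wild-type showed the widest range. *Anxa2* and *Anxa6* were called as higher, *Anxa5* and *Anxa7* rose by less than 2-fold, *Anxa3* fell, and *Anxa1* and *Anxa11* did not pass. The 2 called of 7 stand against 8.95% of tested genes, the 4 that rose against 31.4% and the 1 that fell against 31.4%. The median was 0.72, beside 0.00 over all tested genes. Scaling mattered most here. With library size only, the median of all tested genes itself moved to 0.50 in M/M and 0.20 in I/M, and 93.7% of all genes past the threshold in M/M were higher, against 50.03% with TMM factors. On that scale the annexin median in M/M was 1.23, 6 of the 7 were higher and 1 lower, and *Anxa1* stood at log2 0.56 (adjusted p 0.000391), close to the shift of all genes.

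M/M lenses carry a second mutant copy in place of the wild-type copy that I/M lenses keep, and these cannot be told apart. *Anxa2*, *Anxa5*, *Anxa6*, *Anxa7* and *Anxa11* were higher in M/M, each by less than 2-fold, so that 0 of the 7 were called by edgeR, against 4.7% of tested genes. DESeq2 also called 0, and 5 had an unadjusted p under 0.05. At any fold 5 rose, against 25.6%, and 0 fell, against 25.7%. Of the 5, *Anxa11* was kept for testing only through its M/M libraries. The median was 0.50, beside 0.00 over all tested genes.

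M/M against KO compares the mutant channel with its loss. *Anxa5* was 4.20-fold higher (log2 2.07, SE 0.0825, adjusted p 1.84e-10), *Anxa2* 3.06-fold (log2 1.61, adjusted p 2.3e-09) and *Anxa6* 2.42-fold (log2 1.28, adjusted p 1.13e-10). These 3 of 7 were called, against 9.78% of tested genes. *Anxa7* (1.74-fold) and *Anxa1* also passed, making 5 higher against 32.3%, and *Anxa3* was lower by log2 -0.70, 1 gene against 32.4%. The median was 0.80, beside -0.01 over all tested genes. The comparisons share libraries, wild-type in the first 3 and M/M in the last 3, so that their values are not independent of each other.

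The make-up of the annexin pool changed with genotype. The summed level of the 8 genes was 237.7 ± 27.0 CPM in wild-type, 218.9 ± 3.99 in KO, 365.9 ± 23.2 in I/M and 448.1 ± 22.7 in M/M. KO overlapped wild-type, and both knock-in genotypes lay above it in every library. The share of *Anxa1* in the sum per kilobase was 45.0% ± 5.47 in wild-type, 42.1% ± 0.732 in KO, 37.1% ± 1.24 in I/M and 25.8% ± 1.69 in M/M. The share of *Anxa2* was 12.9% ± 1.23, 20.4% ± 0.247, 23.5% ± 0.983 and 29.8% ± 1.54 in the same order. The ratio of *Anxa2* to *Anxa1* per kilobase, which no scaling between libraries can alter, was 0.292 ± 0.0631 in wild-type, 0.485 ± 0.0144 in KO, 0.632 ± 0.0110 in I/M and 1.16 ± 0.134 in M/M. No genotypes overlapped in it. *Anxa5* made up 16.4% ± 2.14 in wild-type and 8.70% ± 0.194 in KO, and *Anxa3* went from 5.07% ± 0.756 in wild-type to 1.64% ± 0.397 in M/M. In M/M *Anxa2* led the order at 43.9 ± 4.45 CPM per kilobase, ahead of *Anxa1* at 37.8 ± 0.789, and *Anxa7* and *Anxa3* overlapped.

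**Figure D3:**
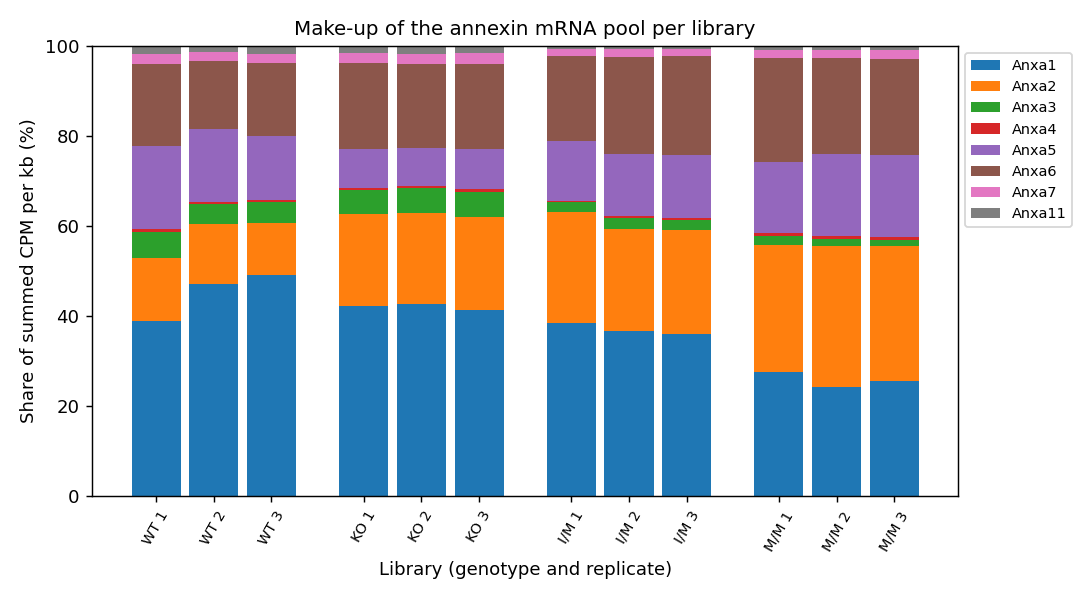
Share of each annexin in the summed annexin CPM per kilobase (y axis, percent) in each of the 12 libraries, stacked to 100. The *Anxa1* share falls from a mean of 45.0% in WT to 25.8% in M/M while the *Anxa2* share grows from 12.9% to 29.8%, and the *Anxa5* share is smallest in KO at 8.70%.

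Genes of the small EF-hand proteins that bind annexin tails rose in M/M. All 6 of the listed partners were tested, and all 6 were past the threshold and higher in M/M than in wild-type, where 31.4% of all tested genes were higher. Rises of at least 2-fold were seen for 3 of them, where 8.95% of all tested genes were called in either direction. In I/M 3 were higher, against 17.3% of all tested genes. In KO 0 changed, where only 2.16% of all tested genes were higher and 2.2% lower. Their median in M/M was log2 0.99, beside 0.00 over all tested genes. *S100a10*, the annexin A2 partner, was at 9.54 to 11.8 CPM in wild-type, 10.5 to 10.7 in KO, 20.6 to 22.7 in I/M and 33.0 to 40.6 in M/M. It rose in I/M by log2 1.02 (SE 0.0850, adjusted p 1.09e-06) and in M/M by 1.79, and unlike *Anxa2* did not pass in KO (log2 -0.02, adjusted p 0.937). *S100a11*, the annexin A1 partner, rose in M/M by log2 0.42 (adjusted p 0.000414). *S100a6* and *S100a4* rose in M/M by log2 1.52 and 1.48. *Pdcd6*, which encodes ALG-2, rose in M/M by log2 0.16 (adjusted p 0.0496), although the libraries overlapped, and *Sri*, which encodes sorcin, rose by 0.49.

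The formyl peptide receptor genes *Fpr1*, *Fpr2* and *Fpr3*, the annexin A1 receptors, had at most 2 counts in any library and were not tested. Of 10 repair and scramblase genes, 7 were tested, and in M/M 4 rose and 1 fell, where 31.4% of all tested genes rose and 31.4% fell. Of the 4 that rose, *Myof* passed the filter only through M/M, so its place in that count depended on its level there. In I/M 3 rose and 1 fell, where the shares of all tested genes were 17.3% and 15.3%. In KO 0 changed, where the shares were only 2.16% and 2.2%. With the filter of 1 CPM, *Ano6* of this list was 9.02-fold higher in M/M than in wild-type (adjusted p 1.98e-09). It was 2.02-fold higher in I/M (adjusted p 0.00121). In the same fit *Dysf* was 1.47-fold higher in M/M (adjusted p 0.0196). *Myof*, the gene of the ferlin myoferlin, was at 0.399 to 0.531 CPM in wild-type and 12.3 to 15.9 in M/M, a rise of log2 4.92 (SE 0.200, adjusted p 2.51e-10). *Syt7*, a Ca2+ sensor of lysosome exocytosis, fell by log2 -1.05 in M/M. *Ahnak*, whose large product binds the annexin A2 complex, rose by log2 0.95 (SE 0.186, adjusted p 0.000576). Of 5 phospholipase, GTPase-regulating and plasmin genes, 3 were tested. *Plat*, the tissue plasminogen activator, was at 1.57 to 2.78 CPM in wild-type, fell in KO by log2 -1.04 (adjusted p 0.0398) and rose in M/M by 2.51. Like *Myof*, *Plat* passed the filter only through M/M, at 8.58 to 14.1 CPM. *Pla2g4a*, the cytosolic phospholipase A2, fell in M/M by log2 -0.65.

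**Figure D4:**
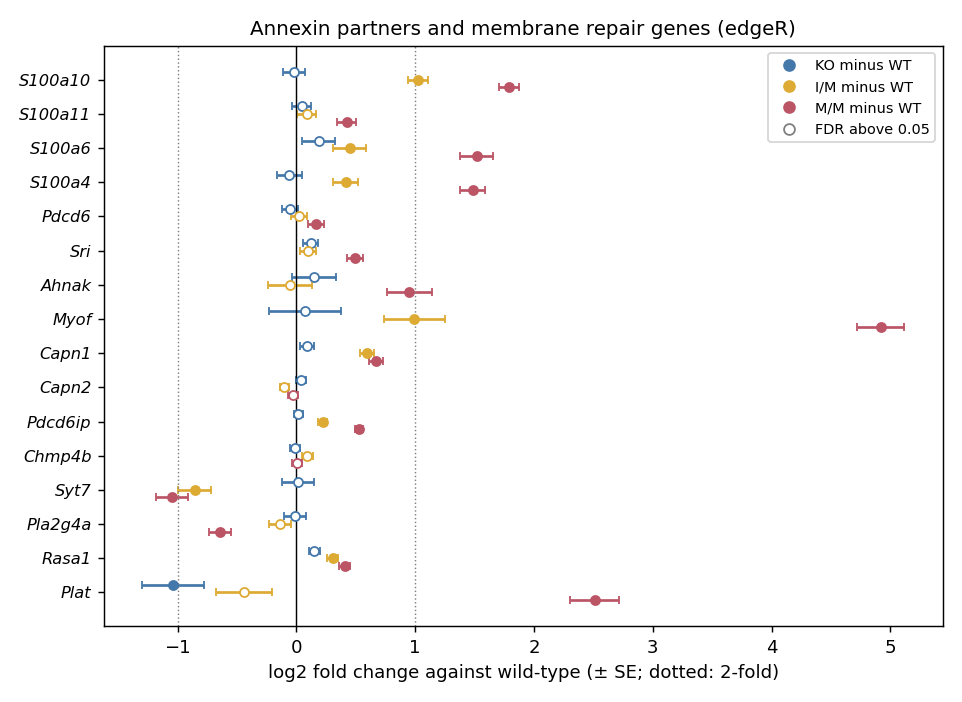
Log2 fold change against wild-type (x axis, with SE bars) of the 16 tested genes listed as annexin partners or as membrane repair, phospholipase and plasmin genes. Filled points have an adjusted p of at most 0.05. *S100a10*, *S100a6*, *S100a4*, *Myof* and *Plat* lie beyond the right dotted 2-fold line in M/M, and in KO only *Plat* is filled.

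Markers of other cell types moved with the same genotypes, and are given as summed CPM from the lowest to the highest library. Lens fiber markers (10 of 10 tested) ran from 33566 to 35884 in wild-type and from 17924 to 20544 in M/M, where 9 of 10 were lower, against 31.4% of all tested genes. Lens epithelium markers (8 of 8 tested) ran from 672.6 to 740.3 in wild-type and from 615.4 to 632.9 in M/M, and their members moved both ways there. *Foxe3* (4.73-fold), *Pax6* and *Gja1* fell in M/M, and *Pdpn*, *Npnt* and *Sulf1* rose. The lens label thus held in all libraries, with less fiber marker RNA in M/M. Vascular endothelium markers (6 of 9 tested) ran from 13.9 to 16.3 in wild-type, 13.8 to 15.03 in KO, 24.97 to 31.5 in I/M and 58.9 to 67.9 in M/M. Pericyte and fibroblast markers (6 of 9) ran from 92.1 to 100.997 in wild-type, 78.8 to 85.02 in KO, 84.9 to 93.7 in I/M and 139.8 to 193.6 in M/M. Macrophage markers (0 of 11 passed the filter) ran from 0.476 to 0.727 in wild-type, 1.25 to 1.47 in I/M and 11.7 to 23.3 in M/M. The sums of these 3 lists were higher in every M/M library than in any other library. In the pericyte and fibroblast list, 5 of the 6 tested members rose in M/M, against 31.4% of all tested genes. Of these, *Rgs5*, *Cspg4*, *Col1a1* and *Col1a2* passed the filter only through M/M libraries. Being tested thus depended on a high level in M/M, and nothing is drawn from that count. *Pdgfra*, the largest member of this list in wild-type at a mean of 79.4 CPM, fell in M/M to 39.0 CPM (log2 -1.03, adjusted p 3.21e-09). Corneal and conjunctival epithelium markers (1 of 7) ran from 1.10 to 1.91 in wild-type, 10.3 to 13.0 in I/M and 10.2 to 18.0 in M/M, with *Krt12* at 0 in wild-type. *Krt4* had a mean of 0.826 CPM in wild-type, 11.1 in I/M and 6.93 in M/M. *Aldh3a1* had a mean of 0.302 CPM in wild-type, 0.226 in I/M and 4.32 in M/M. Photoreceptor markers (0 of 7) ran from 0.651 to 0.892 in wild-type and 1.496 to 4.41 in M/M, with 0.634 to 0.688 in I/M. Pigmented cell markers (0 of 6) ran from 3.09 to 3.63 in wild-type, 5.32 to 6.17 in I/M and 2.89 to 3.46 in M/M, with *Rpe65* at 0 in every genotype, and *Tyrp1* was 2.06-fold higher in I/M than in wild-type (adjusted p 1.36e-05 with the filter of 1 CPM). These lists stayed low beside lens markers. Red blood cell markers (1 of 5) ran from 1.22 to 11.9 in wild-type and from 12.4 to 14.95 in M/M. Their part in the annexin values was not tested. In bulk libraries fewer cells of a type cannot be told apart from less RNA per cell. In KO, where *Anxa5* fell and *Anxa2* rose, the endothelium list overlapped wild-type, whereas the pericyte and fibroblast list and the lens epithelium list (636.1 to 671.0) lay below wild-type in every library. The pericyte and fibroblast sum had a mean of 96.5 CPM in wild-type, most of it from *Pdgfra* at 79.4 CPM. In KO *Pdgfra* fell to 59.3 CPM (log2 -0.42, adjusted p 0.000395), while *Pdgfrb* rose from 12.1 to 17.9 CPM (log2 0.56, adjusted p 0.0155). The lower sum of that list thus reflects *Pdgfra* and not the list as a whole. In the lens epithelium list *Cdh1* fell in KO (log2 -0.31, adjusted p 0.0387).

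**Figure D5:**
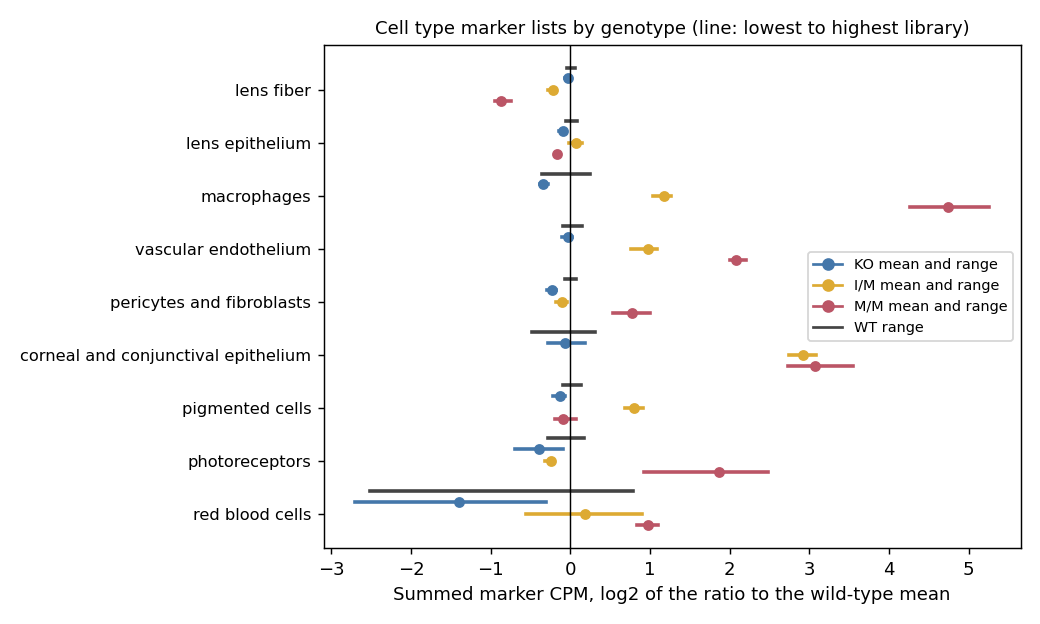
Summed CPM of each cell type marker list as the log2 ratio to its wild-type mean (x axis) in KO, I/M and M/M lens, with points for means and lines from the lowest to the highest of 3 libraries. Macrophage and endothelium lists lie furthest right in M/M together with corneal and conjunctival markers, and the lens fiber list lies to the left, at a mean of 18834 CPM against 34455 in wild-type.

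The tested genes with the most similar pattern were found for each annexin from log2 CPM centred on each gene's own mean, by the root mean square difference over 12 libraries. For *Anxa2* they were *Abcb1b* (0.0981), *Dgkg* (0.105) and *Sgca* (0.124), against 0.834 for the median tested gene. For *Anxa6* they were *Ngfr* (0.0861), *Sqstm1* (0.0928) and *Myo1d* (0.109). For *Anxa5* no gene was as near, and the nearest were *Colec12* (0.177), *Trpm3* itself (0.245) and *Klf9* (0.254), against a median of 0.768. Both *Trpm3* and *Anxa5* were lowest in KO and highest in M/M. *Anxa7* was nearest to *Tceal9* (0.0551), *Yap1* (0.0668) and *Tfe3* (0.0726). *Anxa4* was nearest to *Pgk1* (0.114), *Spred2* (0.138) and *Slc6a6* (0.153). *Anxa3* was nearest to *Slc7a4* (0.103), *Maf* (0.109) and *Gm7901* (0.112), and *Anxa11* to *Lmo4* (0.0885), *Pde1b* (0.113) and *Msrb3* (0.122). *Anxa1* was nearest to *Polr2g* (0.128), *Atp9a* (0.146) and *Guk1* (0.147), against a median of 0.309. All libraries of a genotype enter each distance, so genes that differ alike between genotypes are near for that alone.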

How the data were processed

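Lens RNA at P7 was sequenced in 12 libraries, 3 per genotype, grouped by the sample labels. The authors demultiplexed reads with bcl2fastq, aligned and counted them with DRAGEN against the Ensembl primary assembly (mm10) and deposited unnormalized estimated counts for each gene in each library. The table has 55774 entries for 55487 identifiers (168 listed more than once, used once), and 88.4% of values are whole. Whole counts had been assumed when the tests were chosen, so estimated counts were rounded to whole numbers. A deposited table of the authors' edgeR comparisons (fold changes, p-values) was not used.

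Genes with at least 5 CPM in 3 libraries were fitted together with TMM factors by edgeR 4.0.16 (quasi-likelihood, R 4.3.3), genotype as the only factor, with Benjamini–Hochberg adjustment per comparison. Calls needed an adjusted p of at most 0.05 and a fold change of at least 2. The fit was also run on counts simulated with the spread that edgeR estimated from these libraries. That run does not test the error rate in real lens pools. Exon lengths and coordinates come from GENCODE (GRCm38) by gene identifier, and promoters from RefSeq (GRCm38.p6). DESeq2 1.42.0, other scalings, filters, a replicate block and each library left out were alternatives. The annexins, partner lists, marker lists and motifs were chosen with earlier results of these data known. Named were the 8 annexins, other annexins by level, partners called against wild-type in the main test plus *S100a10*, *S100a11* and *Pdcd6*, and the 3 nearest genes by pattern. *Sri*, *Ahnak*, *Pla2g4a*, *Ano6*, *Dysf* and the single marker genes given with values were chosen after their values were seen.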

Additional observations from a re-analysis of the deposited data

How the results depend on the processing

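The count of annexins called was 1 in KO, 1 in I/M, 2 in M/M, 0 in M/M against I/M and 3 in M/M against KO, and stayed so with TMM factors computed without crystallin genes, upper-quartile factors, DESeq2 and only the genotypes compared. At any fold the counts were 2, 6, 5, 5 and 6. With library size only, 2 were called in I/M, 4 in M/M and 4 in M/M against KO, and log2 fold changes reversed for *Anxa1* (0.062) and *Anxa3* (0.10) in M/M against I/M and for *Anxa11* (0.48) in M/M against wild-type. With no filter or with a filter of 1 CPM, *Anxa4* added 1 call in each M/M comparison, giving 3 against wild-type, 1 against I/M and 4 against KO. Fitting only the genotypes compared left *Anxa11* untested in KO and in I/M against wild-type. With single libraries left out, values near 0 reversed: *Anxa1* in M/M against wild-type ran from -0.13 to 0.17, *Anxa11* there from -0.093 to 0.093, *Anxa6* in KO from -0.0048 to 0.065 and *Anxa4* in KO from -0.10 to 0.19. Of 313 values under alternative settings 301 kept their direction and side of the threshold, and of 480 with a library left out 459 did. Replicate numbers did not pair the libraries: 18 same-numbered pairs correlated from -0.26 to 0.15, and 2 of 12 libraries correlated best with their own number. With the replicate block the counts called were 1, 1, 2, 0 and 3. The cause of these changes was not tested. *Anxa4* alternatives under the lower filter were chosen after seeing the data. With 3 libraries a group, a difference that missed the threshold is not shown to be absent.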
